A study of Mus musculus with 4 samples.

Results

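Potassium channel genes were compared between MP amacrine cells and MP bipolar cells of the postnatal mouse retina. The members were all genes whose symbol starts with Kcn and that had at least 1 probe set annotated to them alone, which gave 84 genes with 167 probe sets, of 18193 genes so annotated on the array. The symbol covers pore-forming subunits, the auxiliary subunits that assemble with them, and 3 noncoding RNAs that carry a channel gene's name. Each gene was read through its brightest probe set, and 42 of the 84 lay above the array median on at least 2 arrays and were tested. MP amacrine cells were retinal neurons positive for both CFP and the VC1.1 antibody, and MP bipolar cells were positive for CFP and negative for VC1.1, all from postnatal day 6 mice of a mixed C57Bl6 and CD1 background. All 4 samples, 2 per group from different litters, came from offspring of males with the MP transgene and females without it. Both groups were sorted by flow cytometry for CFP, which stood for MP expression, and the bipolar samples first lost their VC1.1-positive cells on a magnetic column. The sources used here do not name the promoter that drives MP. Each sample pooled about 1000 cells. RNA went through 2 rounds of amplification and onto 1 Affymetrix array per sample.

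Potassium channels let potassium ions leave the cell, which sets the resting potential, ends depolarisation and controls how often and how long a neuron responds. Pores are assembled from subunits of the voltage-gated, inwardly rectifying, calcium-activated or leak families, and auxiliary subunits change its gating and its place in the cell. Amacrine cells are inhibitory interneurons, many of which fire spikes, while most bipolar cells respond to light with graded changes of voltage, and both use voltage-gated and calcium-activated potassium currents to shape those responses.

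The arrays had median intensities of 44.5 to 47.2. Of the amacrine markers listed, 8 of 9 tested passed on the amacrine side, against 6.54% of all tested genes. Of the bipolar markers 6 of 7 tested passed on the bipolar side, against 6.92%, with no call in the other direction in either list. Tfap2b, Tfap2c, Snhg11 and Neurod6 passed the intensity filter only through the amacrine arrays, and Fezf2 and Car8 only through the bipolar arrays. The lists were chosen with earlier results of these data known, so these counts are descriptions. The tested amacrine marker that did not pass was Gad2, at 169 and 216 in MP amacrine cells against 131 and 190 in MP bipolar cells. Gad1 was too dim to be tested, at 38.0 and 61.7 against 8.58 and 9.93. The tested bipolar marker that did not pass was Prkca, and the bipolar marker Trpm1 was dim on every array, at 22.4 to 26.7. Markers of other cells were also present. Summed intensities of 7 rod photoreceptor genes were 6679 and 4397 in MP amacrine samples and 4031 and 5051 in MP bipolar samples, with 0 of 5 tested genes called. Of 8 Müller glia genes 7 were tested, and 3 (Vim, Slc1a3, Dkk3) were called higher in MP amacrine cells. The 8 summed to 4552 and 4190 on the amacrine arrays against 2168 and 2687 on the bipolar arrays. Vim differed most, at 1672 and 1518 against 108 and 233. Glul, the brightest, was not called (2103 and 1870 against 1594 and 1937). Clu was higher on the bipolar arrays (188 and 128 against 261 and 323), Rlbp1 and Apoe were higher on the amacrine arrays, and these were not called. The 5 microglia genes summed to 1144 and 3664 in MP amacrine samples and to 1537 and 374 in MP bipolar samples. Much of that swing came from Ctss (567 and 2665 against 1003 and 2.27), which was not called. Of 4 tested, 1 was called, Csf1r, higher in MP amacrine cells (383 and 663 against 256 and 197). C1qb leaned the other way (105 and 163 against 186 and 143) and was not called. The 6 ganglion cell genes summed to 3753 and 1815 in MP amacrine samples and to 2696 and 3575 in MP bipolar samples, and 1 of 4 tested, Thy1, was called, higher in MP bipolar cells. Thy1 (806 and 1455 against 2462 and 3415) made up most of the bipolar sums. The other tested genes were higher on the amacrine arrays and were not called. They were Nefl (1102 and 87.5 against 68.6 and 45.7), Nefm (1631 and 136 against 47.7 and 35.0) and Pou4f1 (157 and 88.8 against 60.3 and 36.8). Nefl and Nefm were higher on amacrine array 1 than on array 2, and Thy1 was higher on amacrine array 2. Of 5 endothelial and pericyte genes, Pdgfrb was called higher in MP amacrine cells, and the sums were 207 and 208 against 152 and 144. Of 4 horizontal cell genes 2 were tested and 0 called, with sums of 807 and 551 against 323 and 236. The part of these cells in the potassium channel results was not tested. On MP amacrine replicate 2 the Gapdh control was 3.21 higher at its 3-prime than at its 5-prime end on the log2 scale, against 1.78 to 2.0 on the other arrays, and calls lost without that array are given with their genes.

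Of the 42 tested Kcn genes, 14 differed between the groups at an adjusted p under 0.05 (limma), with 7 on the amacrine side and 7 on the bipolar side. Across all 11583 tested genes 13.5% were called, 6.54% on the amacrine and 6.92% on the bipolar side. The members higher in MP amacrine cells were Kcna1, Kcna2, Kcna4, Kcnd2, Kcnh1, Kcnj3 and Kcnk2. Those higher in MP bipolar cells were Kcna5, Kcnab2, Kcnj9, Kcnk3, Kcnma1, Kcnmb2 and Kcnt2. All 14 differed by at least 1 on the log2(intensity + 16) scale, and 11 by at least 2. The median log2 fold change of the 42 was 0.02, against -0.03 over all tested genes, and the median absolute value was 0.44 against 0.26. Groups did not overlap for 27 of the 42 genes (64.3%), against 53.3% of all tested genes. In bulk samples, fewer cells of a type and less RNA per cell cannot be told apart.

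A gene that is dim in one group passes the intensity filter only through the group where it is high, so these shares are descriptions. Of the 42, 29 were above the array median on all 4 arrays, and 7 of those were called (2 on the amacrine side, 5 on the bipolar side), against 10.7% of all genes above the median on all 4 arrays. Only the amacrine arrays put Kcna1, Kcna4 and Kcnh1 above the median, and only the bipolar arrays put Kcnk3, Kcnt2 and the uncalled Kcnj13 there.

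**Figure D1:**
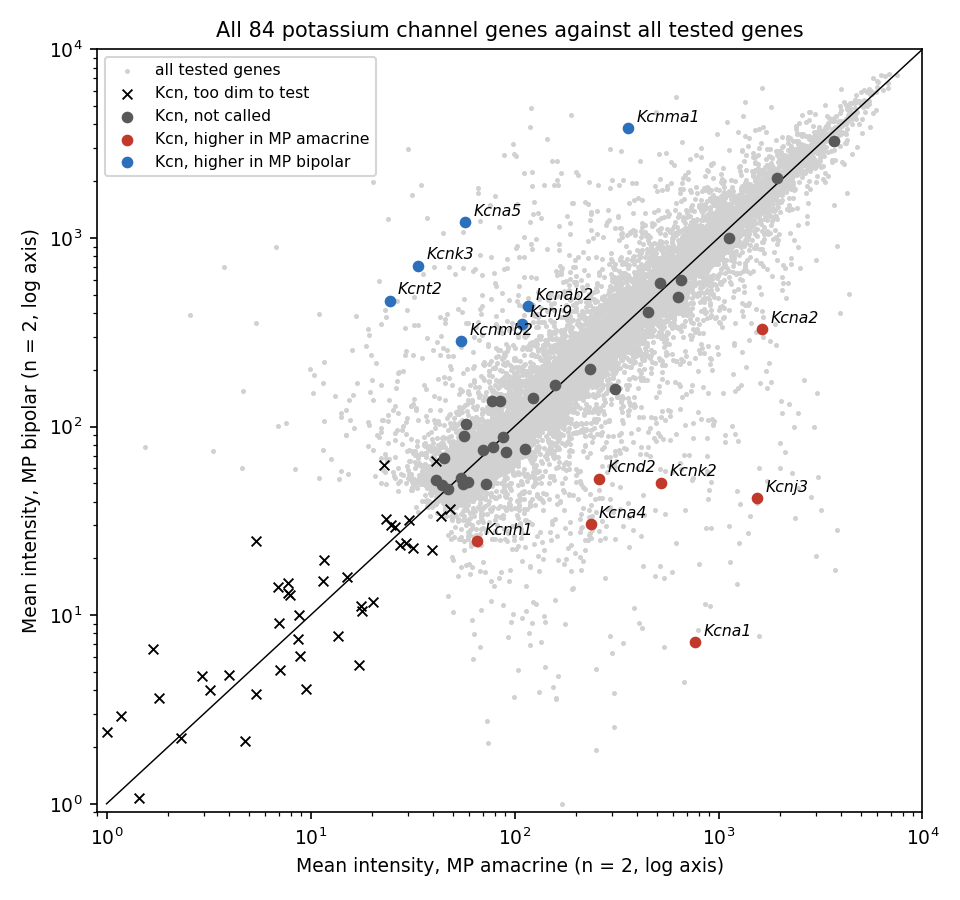
Mean intensity of each gene in MP amacrine cells (horizontal, log axis) and MP bipolar cells (vertical, log axis), 2 arrays each. Grey points are the 11583 tested genes, crosses the 42 Kcn genes too dim to test, and filled circles the 42 tested ones. The 7 genes named in red lie below the diagonal and the 7 named in blue above it.

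The Kcna genes encode the Shaker-type voltage-gated subunits, which open at small depolarisations and hold down repetitive firing. All 4 tested members were called, 3 on the amacrine side and 1 on the bipolar side, against 13.5% of all tested genes. Kcna1 and Kcna4 passed the intensity filter only through the amacrine arrays, where they were high. Another 3 members were too dim to be tested, so this share is a description. Kcna1, a slowly inactivating subunit found on axons, stood at 750 and 785 in MP amacrine cells against 7.24 and 7.16 in MP bipolar cells. The difference on the log2 scale was 5.08 (SE 0.20, adjusted p = 1.29e-05, limma). Both bipolar values were below 16, the offset added before taking logs, so the size depends on that offset, and it was 6.55 with an offset of 1 and 3.55 with 64. Kcna2, which assembles with Kcna1 in many axons, was present in both groups, with 1681 and 1593 in MP amacrine cells against 339 and 320 in MP bipolar cells (2.26, SE 0.19, adjusted p = 1.99e-04). Kcna4, the fast-inactivating member that gives an A-type current, had 227 and 245 in MP amacrine cells against 31.0 and 29.9 in MP bipolar cells (2.44, SE 0.20, adjusted p = 1.65e-04), and its bipolar values lay below the array medians.

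Kcna5, a delayed-rectifier subunit known best from heart atrium, ran the other way. It stood at 61.4 and 52.6 in MP amacrine cells against 1179 and 1251 in MP bipolar cells, a log2 difference of -4.08 (SE 0.22, adjusted p = 2.37e-05, limma). In the RefSeq annotation of GRCm38.p6, Kcna5, Kcna1 and Kcna6 follow each other with no other protein-coding gene between them, so direct neighbours differed in opposite directions. The third gene of that cluster, Kcna6, was too dim to be tested, at 21.0 and 30.9 against 30.5 and 28.1. In another cluster Kcna2 lies between Kcna3 and Kcna10, and Kcna3 was also too dim, at 24.9 and 21.7 against 27.3 and 37.2. Kcna7 was the remaining dim member.

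Upstream sequence is shown for 3 called voltage-gated genes whose RefSeq start is the outer end of the gene, Kcna4 and Kcnd2 as members higher in MP amacrine cells and Kcna5 as the Kcna member higher in MP bipolar cells. Each run is the 250 bases before the start, 5′ to 3′ on the gene's strand, from RefSeq on GRCm38.p6. Capitals mark the E-box CANNTG, the word that bHLH transcription factors bind, which reads the same on both strands. Kcna4 lies at chr2:107290339-107290588 on the plus strand, Kcnd2 at chr6:21215096-21215345 on the plus strand and Kcna5 at chr6:126535556-126535805 on the minus strand.
Kcna4: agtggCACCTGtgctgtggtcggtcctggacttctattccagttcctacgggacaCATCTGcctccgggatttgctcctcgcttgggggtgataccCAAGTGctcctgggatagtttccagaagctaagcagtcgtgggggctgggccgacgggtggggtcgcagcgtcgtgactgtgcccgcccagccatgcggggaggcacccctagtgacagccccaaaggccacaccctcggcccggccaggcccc
Kcnd2: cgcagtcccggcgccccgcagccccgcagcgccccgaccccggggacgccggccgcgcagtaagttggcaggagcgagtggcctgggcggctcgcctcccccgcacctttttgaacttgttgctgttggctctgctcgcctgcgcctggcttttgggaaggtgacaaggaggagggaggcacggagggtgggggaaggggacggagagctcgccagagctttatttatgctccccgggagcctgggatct
Kcna5: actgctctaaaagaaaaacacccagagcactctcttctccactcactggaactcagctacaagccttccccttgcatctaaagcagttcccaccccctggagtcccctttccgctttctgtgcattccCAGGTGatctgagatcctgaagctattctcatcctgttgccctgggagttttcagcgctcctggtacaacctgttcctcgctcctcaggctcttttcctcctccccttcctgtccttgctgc
The Kcna4 window held 3 E-boxes and the Kcna5 window 1, and the Kcnd2 window had no such word. The E-box was present in 66.2% of the 32851 RefSeq windows of this length, so its presence sets no gene apart. CAGATG or CATCTG, forms of the E-box bound by Neurod factors, occurred in 14.4% of the windows, and among these 3 genes in the window of Kcna4 with 1 copy. Neurod6 itself, the bHLH factor in the study's title, had 1680 and 1493 in MP amacrine cells against 9.55 and 5.99 in MP bipolar cells. Whether Neurod6 binds or regulates any of these genes was not tested.

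The cytoplasmic beta subunits of the Kcna channels, named Kcnab, had 3 genes on the array. Kcnab2 was higher in MP bipolar cells, with 131 and 101 on the amacrine arrays against 437 and 431 on the bipolar arrays (-1.78, SE 0.23, adjusted p = 0.00150, limma). Kcnab1 and Kcnab3 were too dim to be tested. Kcnab2 thus had the direction of Kcna5 and the opposite of Kcna1, Kcna2 and Kcna4.

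**Figure D2:**
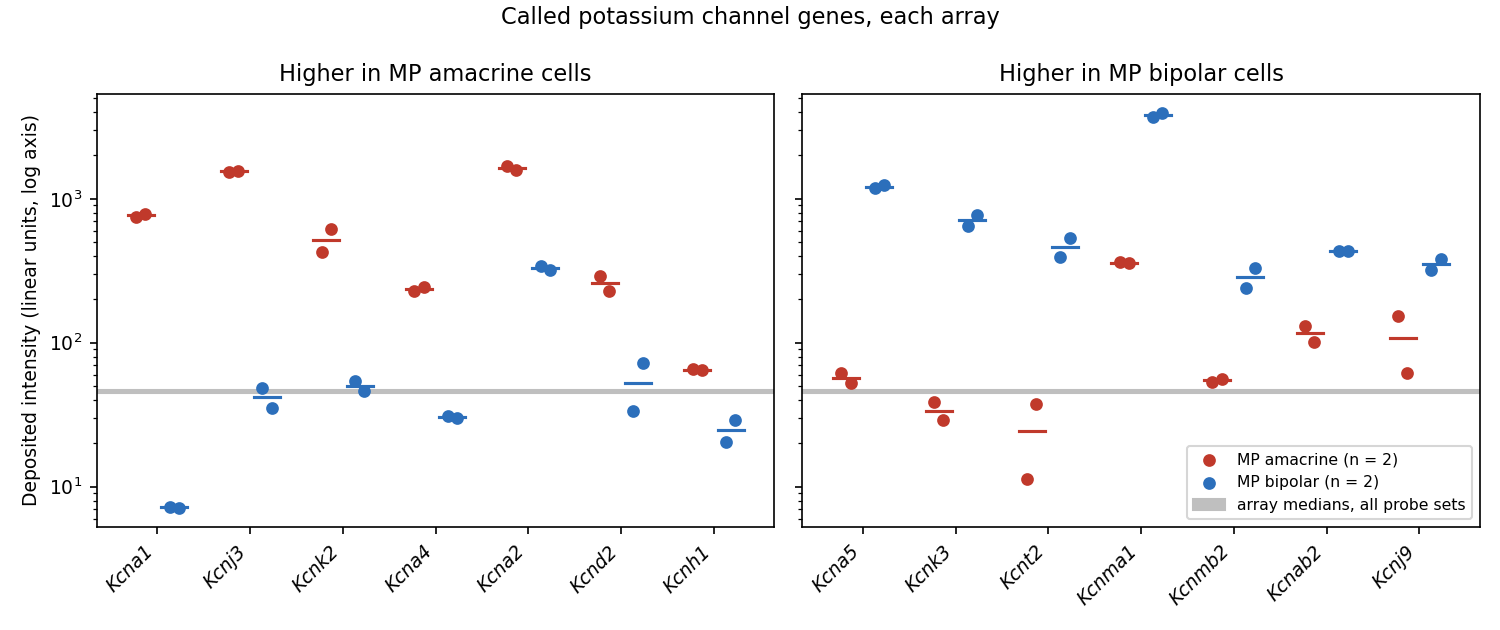
Intensity on each array (log axis) of the 7 Kcn genes higher in MP amacrine cells (left) and the 7 higher in MP bipolar cells (right). Red points are the 2 MP amacrine arrays, blue points the 2 MP bipolar arrays, short lines the group means, and the grey band the range of the array medians. The groups do not overlap for any of the 14, and Kcnj9 and Kcnt2 have the widest gap between their amacrine points.

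Among the other voltage-gated families, 2 genes were called. The Kcnd genes encode the subunits of the somatic and dendritic A-type current. Kcnd2 had 293 and 227 in MP amacrine cells against 33.3 and 72.4 in MP bipolar cells (2.05, SE 0.31, adjusted p = 0.00324, limma). This call rests on the brightest probe set, since 2 others above the filter were at -0.29 and -0.03, and with the mean of all its probe sets the gene was at 0.51 and was not called (adjusted p = 0.198). Kcnd3, of the same family, was bright on every array, with 3802 and 3548 in MP amacrine cells against 3280 and 3254 in MP bipolar cells (0.17, SE 0.10, adjusted p = 0.377). Its groups did not overlap, but the difference did not pass the test. Kcnd1 had 77.2 and 91.8 against 157 and 116 (-0.59, adjusted p = 0.155). The Kcnip genes, whose calcium-binding proteins accompany Kcnd channels, had 3 tested members and no call, and Kcnip4 came nearest with 365 and 255 in MP amacrine cells against 117 and 201 in MP bipolar cells (0.92, SE 0.30, adjusted p = 0.0956, and 0.0334 with the replicate number as a block).

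Kcnh1, of the ether-a-go-go family, had 65.8 and 64.5 in MP amacrine cells against 20.5 and 29.1 in MP bipolar cells (1.0, SE 0.21, adjusted p = 0.0169, limma). This call was lost when either amacrine array was left out (adjusted p = 0.0520 without replicate 1 and 0.0608 without replicate 2) and when MP bipolar replicate 1 was (0.120). Kcnh2, whose channels close slowly after the cardiac action potential, had 55.2 and 60.7 in MP amacrine cells against 101 and 106 in MP bipolar cells. Its log2 difference of -0.69 (SE 0.20) had the lowest adjusted p among the uncalled Kcn genes, 0.0616. Kcnh3 and Kcnh8 were not called, and Kcnh5 and Kcnh7 were too dim.

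The Kcnc genes encode fast, high-threshold channels known from fast-spiking neurons. Kcnc1 had 1212 and 1049 in MP amacrine cells against 896 and 1109 in MP bipolar cells, overlapping values that differed by 0.18 on the log2 scale (SE 0.19, adjusted p = 0.662, limma). Kcnc2 was not called either (-0.44, adjusted p = 0.421), and Kcnc4 was too dim. The modulatory subunits Kcng1, Kcng4, Kcnv1 and Kcnv2, which form no channel alone, were tested with no call. Kcnv2, known from photoreceptors, had 331 and 136 in MP amacrine cells against 225 and 181 in MP bipolar cells. Its log2 difference was 0.08 (SE 0.37, adjusted p = 0.934, limma), and 0.67 without MP amacrine replicate 2 (adjusted p = 0.176). None of the Kcnq genes of the M-current (Kcnq1, Kcnq3, Kcnq5) and none of the 5 Kcne genes, single-span auxiliary subunits, was bright enough to be tested.

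**Figure D3:**
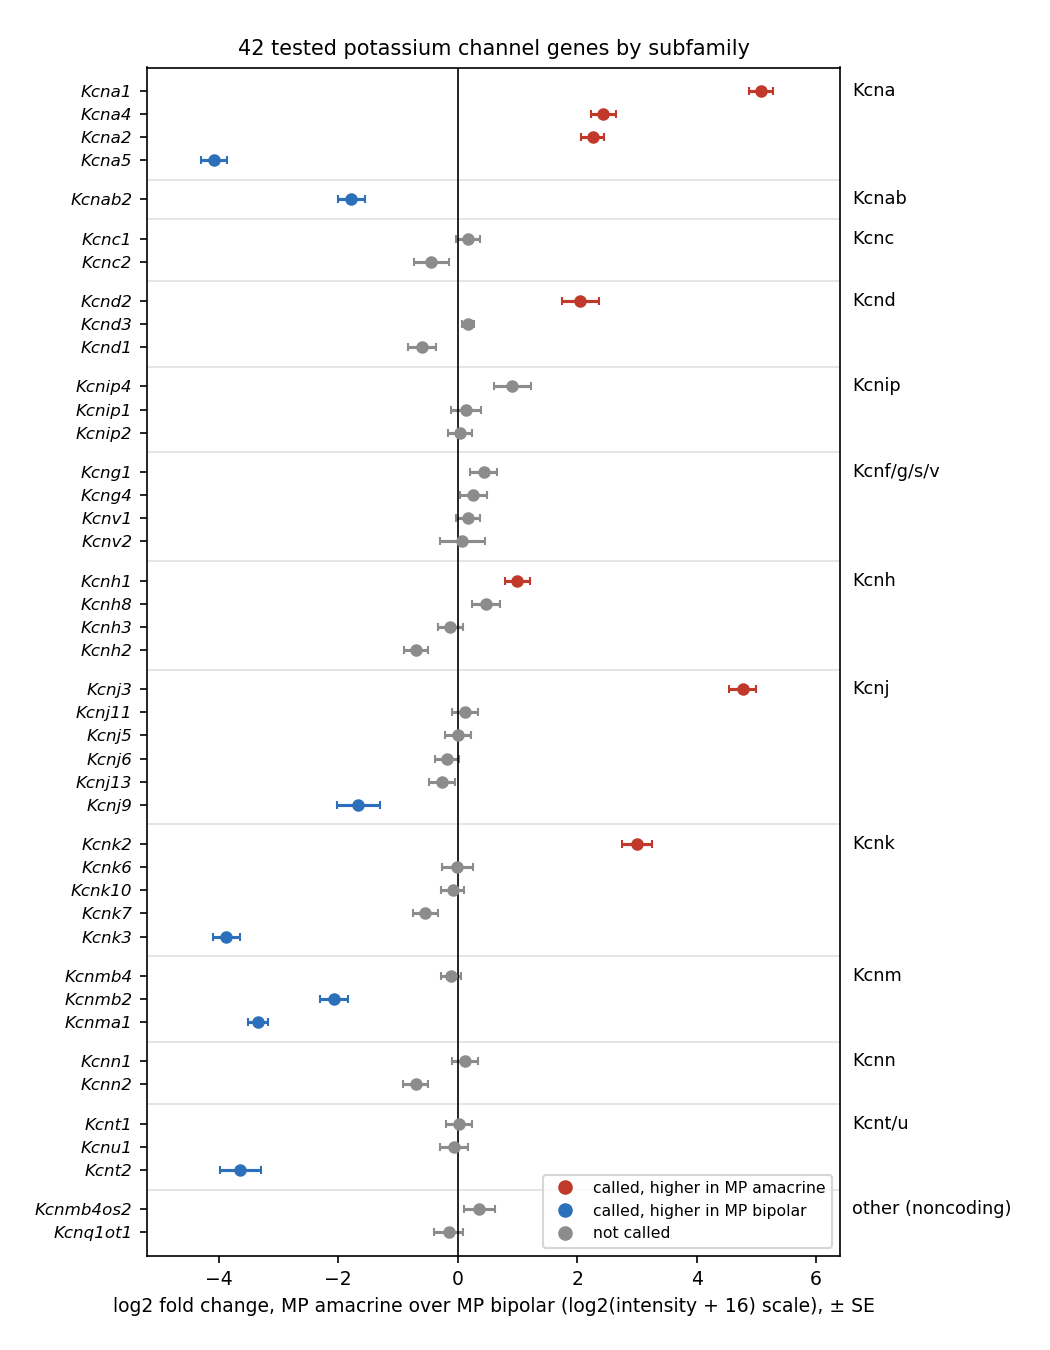
Log2 fold change of MP amacrine over MP bipolar cells with its SE for the 42 tested Kcn genes, grouped by subfamily down the page. Red and blue points were called (limma, adjusted p under 0.05), and grey points were not. Kcna, Kcnj and Kcnk each hold called genes on both sides of 0, while the called Kcnm genes lie on the bipolar side.

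The Kcnj genes encode the inward rectifiers. Kcnj3, Kcnj5, Kcnj6 and Kcnj9 form the GIRK channels, which G proteins open after inhibitory receptors such as GABA-B are activated. Kcnj3 had 1541 and 1554 in MP amacrine cells against 48.5 and 35.0 in MP bipolar cells, a log2 difference of 4.77 (SE 0.23, adjusted p = 1.85e-05, limma). Kcnj9 differed in the opposite direction, with 154 and 62.1 in MP amacrine cells against 323 and 379 in MP bipolar cells (-1.66, SE 0.36, adjusted p = 0.0185). Its amacrine arrays differed from each other more than its bipolar arrays. The fold change was -2.23 without MP amacrine replicate 1 (adjusted p = 0.00152) and -1.10 without MP amacrine replicate 2 (adjusted p = 0.0354), and without MP bipolar replicate 2 the call was lost (-1.55, adjusted p = 0.0868).

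Kcnj6 was similar on all arrays, with 121 and 126 in MP amacrine cells against 150 and 134 in MP bipolar cells (-0.18, SE 0.21, adjusted p = 0.682, limma). Kcnj5 gave different answers by probe set. The slightly brighter one on the log2 scale, which stood for the gene, had 55.1 and 39.8 against 49.7 and 43.4 and no difference that passed (0.01, SE 0.22, adjusted p = 0.983). The other probe set had 215 and 155 in MP amacrine cells against 1.84 and 2.05 in MP bipolar cells, and when all probe sets were tested singly it came out at 3.47 on the log2 scale (SE 0.23, adjusted p = 2.93e-04). It was the only probe set of an uncalled Kcn gene that passed in that test. With an offset of 64 this probe set became the brighter one and Kcnj5 was called, at 1.91 (adjusted p = 1.09e-04).

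Kcnj11, the pore of the ATP-sensitive channel, had 591 and 718 in MP amacrine cells against 628 and 566 in MP bipolar cells (0.12, SE 0.21, adjusted p = 0.801, limma). Kcnj13, known from the pigment epithelium, had 36.1 and 46.3 against 46.6 and 58.1 and was not called. Kcnj10, the main inward rectifier of Müller glia, lay below the filter, at 40.6 and 46.4 in MP amacrine cells and 29.7 and 37.7 in MP bipolar cells. Kcnj8, known from pericytes, was dim as well, at 8.58 and 7.28 against 11.05 and 14.45. The other 7 dim Kcnj genes were Kcnj1, Kcnj2, Kcnj4, Kcnj12, Kcnj14, Kcnj15 and Kcnj16.

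The Kcnk genes encode the channels that carry background potassium leak. Kcnk2, a leak channel opened by membrane stretch, heat and fatty acids, had 425 and 617 in MP amacrine cells against 54.6 and 46.3 in MP bipolar cells (2.99, SE 0.25, adjusted p = 1.72e-04, limma). Kcnk3, an acid-sensitive leak channel, had 38.6 and 28.9 in MP amacrine cells against 648 and 775 in MP bipolar cells (-3.87, SE 0.23, adjusted p = 3.48e-05). Each group thus had 1 called leak channel gene that stood near or below the array median in the other. Kcnk10, the nearest relative of Kcnk2 in gating, had 68.2 and 71.4 against 73.1 and 76.9 (-0.09, SE 0.20, adjusted p = 0.859). Kcnk6 and Kcnk7 were not called, and 7 Kcnk genes were too dim, Kcnk1, Kcnk4, Kcnk5, Kcnk12, Kcnk13, Kcnk15 and Kcnk16.

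Channels opened by intracellular calcium or sodium, with their relatives and beta subunits, had 3 called genes, all higher in MP bipolar cells. Of 3 tested Kcnm genes 2 were called, of 3 tested Kcnt and Kcnu genes 1, and of 2 tested Kcnn genes 0. Across all tested genes 6.92% were called on the bipolar side. Kcnma1 encodes the pore of the BK channel, which opens with depolarisation and calcium and shortens depolarisations near calcium channels. It had 365 and 357 in MP amacrine cells against 3710 and 3931 in MP bipolar cells (-3.35, SE 0.17, adjusted p = 1.85e-05, limma), above the array median in both groups. Kcnmb2, a BK beta subunit that makes the current inactivate, had 53.3 and 56.4 in MP amacrine cells against 239 and 329 in MP bipolar cells (-2.07, SE 0.23, adjusted p = 7.80e-04). Kcnmb4, the beta subunit known best from neurons, had 2197 and 1667 in MP amacrine cells against 1973 and 2167 in MP bipolar cells (-0.11, SE 0.17, adjusted p = 0.768). The groups overlapped for Kcnmb4 and not for Kcnma1 or Kcnmb2, and Kcnmb1 was too dim.

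Kcnt2, a sodium-activated channel related to BK, had 11.3 and 37.6 in MP amacrine cells against 392.2 and 537 in MP bipolar cells (-3.64, SE 0.34, adjusted p = 2.98e-04, limma). Without MP amacrine replicate 1 the value was -3.15 and without MP amacrine replicate 2 it was -4.12, and the call held in both. Its relative Kcnt1 had 73.4 and 84.3 against 66.6 and 88.4 and was not called (0.03, SE 0.22). Kcnu1, known as a channel of sperm, had 151 and 164 against 194 and 139 and was not called. The small-conductance calcium-activated Kcnn genes had 2 tested members, of which Kcnn2 had 81.6 and 73.6 in MP amacrine cells against 128 and 146 in MP bipolar cells (-0.70, SE 0.21, adjusted p = 0.0659). Kcnn1 was not called, and Kcnn3 and Kcnn4 were too dim.

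The 28 uncalled tested genes had log2 fold changes from -0.70 to 0.92, with a median SE of 0.22, and 23 of them were under 0.5 in size. With 2 arrays per group and adjustment over all tested genes, a missed threshold does not show that these genes were equal. At an unadjusted p under 0.05 (limma), 19 of the 42 genes passed. The share of all tested genes at that threshold was not counted, so this number does not set the family apart. In the 42 genes too dim to be tested no array exceeded an intensity of 98.6, the value of Kcne2 on MP bipolar replicate 2.

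Probe sets other than the brightest were used to check the 14 calls. Another probe set above the filter existed for 6 genes (Kcna1, Kcna2, Kcnd2, Kcnj3, Kcnma1, Kcnmb2), and in 5 of them all these extra probe sets shared the sign of the call. Kcnma1 had 4 others, at -3.07 to -4.59 for the 3 that were called and -0.53 for the fourth. Kcna1 had 2 others, at 2.78 and 2.02, and Kcna2 had 1, at 2.95, all called. Kcnj3 had 3 others, of which 1 was called at 1.73 and the other 2 were at 0.25 and 0.37 with intensities of 50.4 to 105. Kcnmb2 had 1 other, at -1.09, which was not called (adjusted p = 0.0887, limma with all probe sets tested singly). Kcnd2 was the exception in sign, with 2 others at -0.29 and -0.03, neither called. The other 8 called genes rest on 1 probe set above the filter each.

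**Figure D4:**
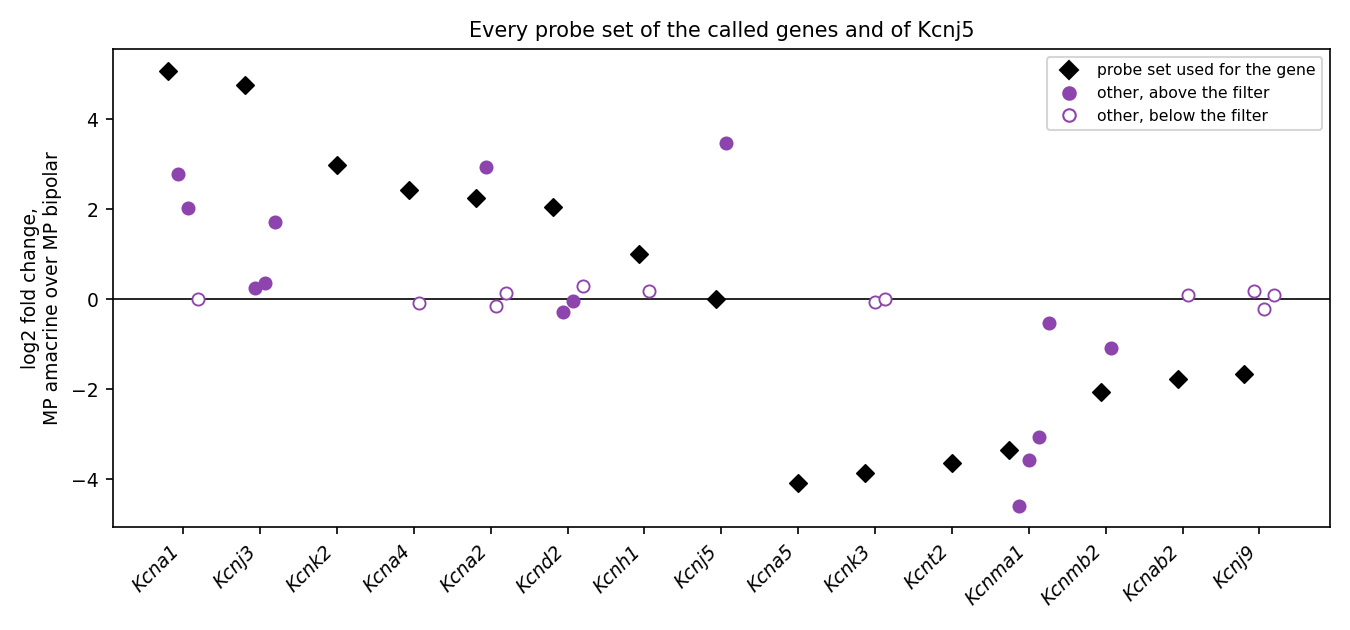
Log2 fold change of MP amacrine over MP bipolar cells for every probe set of the 14 called Kcn genes and of Kcnj5. Black diamonds are the probe sets that stood for the genes, filled circles other probe sets above the intensity filter, and open circles those below it. Kcnma1 has 3 other probe sets beyond -3 and another above the filter at -0.53. Kcnj3, Kcna1, Kcnd2 and Kcnj5 also have probe sets above the filter that lie far from the one used.

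Genes that bind, cluster or accompany potassium channels, or belong to related channel families, formed a list of 25, of which 15 were tested. Of these, 2 passed on the amacrine side and 2 on the bipolar side (limma), against 6.54% and 6.92% of all tested genes, and 11 were not called. Dlg2, a scaffold that clusters Kcna channels at synapses and axons, had 1504 and 1112 in MP amacrine cells against 377 and 529 in MP bipolar cells (1.5, SE 0.25, adjusted p = 0.00540). The Dlg2 call was lost with the mean of all its probe sets (0.57, adjusted p = 0.107) and without the intensity filter (0.0521). Ank3, which anchors Kcnq and sodium channels at the axon initial segment, had 3950 and 3534 in MP amacrine cells against 2558 and 2637 in MP bipolar cells (0.52, SE 0.11, adjusted p = 0.0190). The Ank3 call was lost without MP bipolar replicate 1 (adjusted p = 0.128) or replicate 2 (0.108), after median scaling (0.0667), without the variance trend (0.141), with the mean of all its probe sets (0.0918) and without the filter (0.0909).

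Dpp10, an auxiliary subunit of Kcnd channels, had 45.2 and 40.7 in MP amacrine cells against 225 and 253 in MP bipolar cells (-2.11, SE 0.21, adjusted p = 3.76e-04, limma). Its relative Dpp6 was at 422 and 334 against 522 and 558 and did not pass (-0.51, adjusted p = 0.218). Hcn3, a hyperpolarisation-activated cation channel of the same superfamily, had 259 and 138 in MP amacrine cells against 736 and 794 in MP bipolar cells (-1.92, SE 0.30, adjusted p = 0.00406), and passed in every alternative except the one without the filter (0.0513). Cntnap2, which gathers Kcna1 and Kcna2 beside nodes of Ranvier, had 289 and 85.6 against 417 and 523 and did not pass (-1.46, SE 0.46, adjusted p = 0.0832).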

How the data were processed

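The authors deposited linear intensities, a single value for each of 45101 probe sets on every array. The sources used here do not say how these were summarised, background-corrected or scaled. The table has no detection calls, and 27.8% to 28.7% of probe sets per array lay below 16. Values were used as log2(intensity + 16), so fold changes of dim genes are understated.

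The 64 control probe sets were left out. The platform annotation gives 1 gene for 34945 probe sets, several for 932 and none for 9160. Only the first were named. All 84 Kcn symbols were found in RefSeq. Each gene was read through the probe set brightest on the mean log2 scale and tested when above the array median on at least 2 of 4 arrays.

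Groups came from the sample titles. The fit used limma 3.58.1 in R 4.3.3 (lmFit, eBayes with a trend on mean level). Tests were two-sided, and Benjamini-Hochberg adjustment ran over 11583 genes at a threshold of 0.05. It had 2 residual degrees of freedom. The procedure was tested on simulated data. Members and lists were chosen with earlier results of these data known. All Kcn genes could be named, with values on every array for called genes, and so could called partners. The alternatives were 2 scalings, other filters, offsets, probe set rules and variance moderation, the replicate number as a block, and each replicate left out. Kcnj8, Kcne2, Cntnap2, Dpp6, the markers and Kcnj5's second probe set were named after values were seen. Another background correction could not be tried on summarised values.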

Additional observations from a re-analysis of the deposited data

How the results depend on the processing

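Under 15 alternatives no called Kcn gene changed direction. Of the 14 called, 11 passed in every alternative in which they were tested, and Kcnd2, Kcnh1 and Kcnj9 did not. Without the intensity filter, which tests 18193 genes, Kcnd2 (adjusted p = 0.0544), Kcnh1 (0.0696) and Kcnj9 (0.131) were lost. With the mean of all probe sets of a gene Kcnd2 was at 0.51 (adjusted p = 0.198), and Kcnh2, Kcnn2 and Kcnj5 were gained. The calls lost when a replicate was left out are given with their genes, and a group with 1 array was then assumed to vary like the other. The number of Kcn genes called higher in MP amacrine cells lay between 5 and 8, and higher in MP bipolar cells between 6 and 7. Over all tested genes 785 were called without the filter, and 917 (without MP bipolar replicate 2) to 1939 (without MP amacrine replicate 1) with each replicate left out in turn, against 1559. With the replicate number as a block, 1932 genes were called, and 8 and 7 Kcn genes. The numbers do not pair the samples by the labels, and the replicate differences of the groups correlated at -0.04 across genes. Of the 28 uncalled Kcn genes, 11 changed sign in some alternative. The number of arrays and signal near background limit all values of dim genes, and fold sizes follow the offset, with Kcnt2 at -4.40 for an offset of 1 and -2.58 for 64. They also follow the probe set rule, and with the mean of all probe sets Kcna1 was at 2.47, Kcna2 at 1.30, Kcna4 at 1.17, Kcnj3 at 1.78 and Kcnab2 at -0.84, all still called.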

Other observations

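The 3 noncoding members showed no called difference. Kcnq1ot1, an imprinted RNA transcribed antisense within the Kcnq1 gene, had 446 and 592 on the MP amacrine arrays against 653 and 503 on the MP bipolar arrays (-0.15, SE 0.25, adjusted p = 0.782, limma), while Kcnq1 itself was too dim to be tested, at 24.2 and 36.6 against 29.1 and 34.7. Of the 5 other Kcnq1ot1 probe sets, 3 lay above the filter, at -0.12, 0.06 and 0.31, and none was called. Kcnmb4os2 had 756 and 511 in MP amacrine cells against 418 and 550 in MP bipolar cells (0.36, SE 0.27, adjusted p = 0.474), and Kcnmb4os1 was too dim. Kcnq5 was dim on every array and was not tested. Its brightest probe set had 20.9 and 13.9 in MP amacrine cells against 5.38 and 5.44 in MP bipolar cells. These values did not overlap, as was so for 53.3% of all tested genes. The other Kcnq5 probe sets had group means of 4.65 against 5.51 and of 2.15 against 1.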
